A study of Drosophila melanogaster with 24 samples.

Results

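The ionotropic receptor (Ir) genes of Drosophila melanogaster were followed through peak lists of 2 histone marks, H3R17me2 and H3K27me3, in fly heads. Members were the protein-coding genes of the dm6 gene models whose symbol is Ir followed by a digit. This gave 60 of 13945 protein-coding genes, and 6 Ir pseudogenes were left out. The values are covered shares, the percent of a gene body (start to end of the gene, introns included) that lies under the peaks of 1 library.

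Ionotropic receptors are ligand-gated channels related to the ionotropic glutamate receptors of synapses. In flies they serve smell, taste, and the sensing of temperature and humidity, and most are made in small sets of sensory neurons. A tuning receptor commonly works together with a co-receptor such as Ir8a, Ir25a, Ir76b or Ir93a. H3K27me3 is written by Polycomb repressive complex 2 and typically lies over broad silent domains. H3R17me2, asymmetric dimethylation of arginine on the same histone, is written by CARM1-type enzymes, Art4 in flies, and is mostly associated with active genes.

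Heads of male flies were taken at 2 ages from 2 genotypes, with 25 heads per sample. The groups were 40-day LKRSDH MB01942 mutants, 40-day w1118 controls, 3-day LKRSDH MB01942 mutants and 3-day w1118 controls. LKRSDH encodes a lysine-degrading enzyme that has also been described as a corepressor, and the homozygous MB01942 allele is an insertion with a GFP trap, in flies backcrossed to w1118. Each group had 2 libraries per mark, so 16 libraries were compared, 8 of each mark. Whole heads mix many cell types, so fewer marked cells and a weaker mark per cell cannot be told apart. Only peak lists were used here, so the tissue label was not set against marker expression.

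The lists covered between 21.1 and 47.6 Mb of the genome for H3R17me2 and between 30.7 and 45.4 Mb for H3K27me3. The 4 H3K27me3 lists of 40-day flies covered 42.1 to 45.4 Mb, and the 4 of 3-day flies 30.7 to 35.9 Mb. The H3R17me2 list of 40-day control replicate 1 stood apart with the 21.1 Mb, against 31.8 to 47.6 Mb in the other 7. The lists hold no read counts, so the depth behind a share is unknown and no counting interval can be given. Hardly any gene on chromosome X lay under an H3R17me2 peak: the mean covered share of all X genes was 0 to 0.961% over the 8 libraries, against 18.4 to 47.8% for autosomal genes.

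The 60 members lay at 40 loci, counting members within 10000 bp of each other as 1 locus. There were 31 loci with a single member and 9 with several, which held 29 members. The largest cluster was Ir7b to Ir7g on chromosome X, with 6 members. Of all members, 49 were autosomal and 11 were on X. Members had a median length of 1908 bp, against 2166 bp for all protein-coding genes, and the longest was Ir41a with 104437 bp. Another protein-coding gene overlapped 13 members, and 9 lay wholly inside one, for example Ir47a in SLO2 and Ir60a in nord. The share of such a member cannot be told apart from that of its host.

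H3K27me3 covered the Ir genes more widely than the average gene. The mean covered share of the 60 members was 43.7% ± 11.5 (SD over 8 libraries), against 21.0% ± 4.03 for all protein-coding genes. In every one of the 8 lists the mean of the members was above that of all genes, as the plot of mean covered share by library shows. With peaks of q under 0.05 this failed only in 40-day mutant replicate 1, where the members had 6.67%, against 8.22% for all genes. In every other list the members stayed higher. The values ran from 8.81% against 8.29% in 40-day control replicate 1 to 41.2% against 20.1% in 40-day mutant replicate 2. The 2 families most like the Ir genes gave 54.4% ± 10.6 for 60 odorant receptor genes and 36.1% ± 12.1 for 60 gustatory receptor genes. For H3R17me2 the members averaged 38.8% ± 12.5, against 29.6% ± 8.19 for all genes. These values are descriptions, since genes of a family are not replicates.

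**Figure D1:**
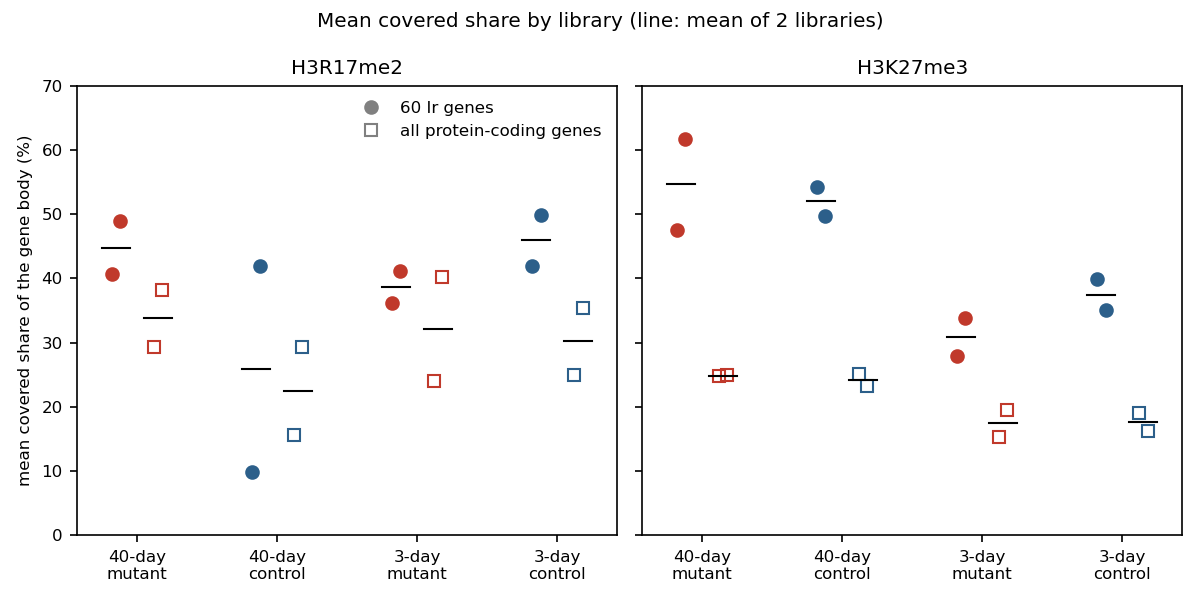
Mean covered share of the gene body (percent, vertical axis) in each library, for the 60 Ir genes (filled circles) and all protein-coding genes (open squares), by age and genotype. Red is mutant, blue is control, and each line is the mean of 2 libraries. The Ir mean for H3K27me3 lay between 47.6 and 61.7% in the 40-day libraries and between 27.8 and 39.9% in the 3-day libraries, and 1 H3R17me2 library of 40-day controls lay at 9.81%.

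Around the gene starts, the members and the average gene had different shapes. At the start itself 37.9% of the Ir genes lay under an H3K27me3 peak, and the share was highest 1000 bp downstream, at 46.7%. Over all genes the share was 18.2% at the start and lowest 250 bp upstream, at 17.7%. For H3R17me2 the members reached 42.1% at 1250 bp downstream, and all genes dipped to 20.1% at 250 bp upstream. The members were thus highest inside the gene, and the average gene was lowest just upstream of its start.

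**Figure D2:**
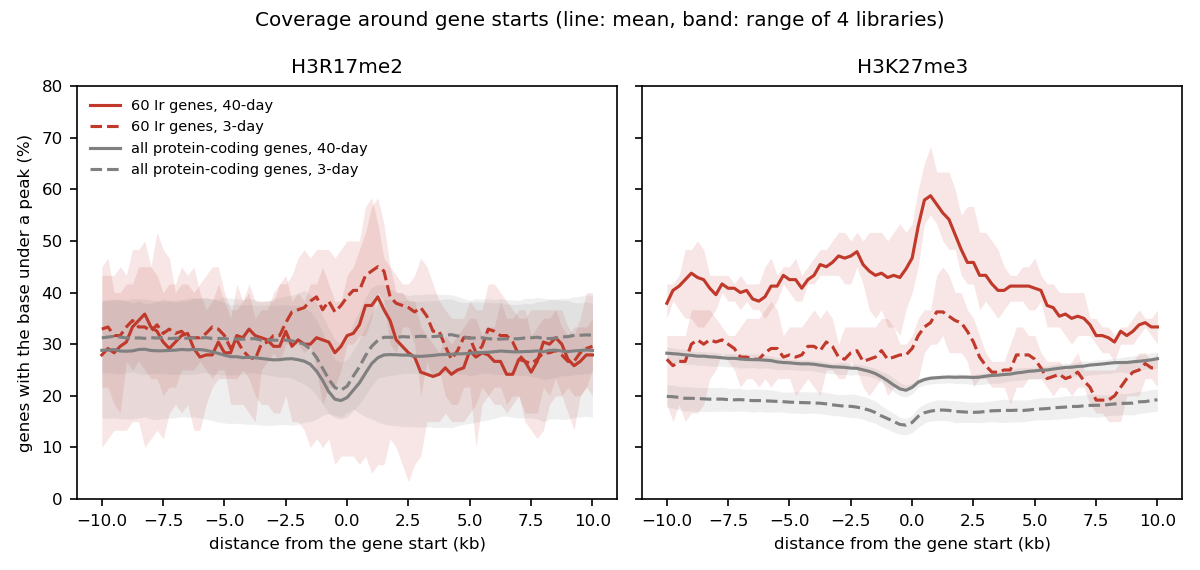
Percent of genes whose base at a given distance from the gene start (kb, horizontal axis, positive downstream) lay under a peak, for the 60 Ir genes (red) and all protein-coding genes (grey). Lines are means and bands the range of 4 libraries of one age, solid for 40-day and dashed for 3-day. For H3K27me3 the Ir genes reached 58.8% in 40-day libraries and 36.2% in 3-day libraries.

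The members fell into constant and variable ones. For H3K27me3, 6 members were fully covered in all 8 libraries (Ir60a, Ir64a, Ir67a, Ir92a, Ir94e and Ir7a), which is 10.0% of them against 6.04% of all genes. At least 50% of the body was covered in all 8 libraries for 11 members, 18.3% against 11.4% of all genes, which adds Ir47a, Ir48b, Ir48c, Ir76b and Ir94g. Another 11 members were never under an H3K27me3 peak, or 18.3% against 59.0% of all genes. These were Ir25a, Ir8a, Ir93a, Ir31a, Ir51b, Ir54a, Ir60e, Ir62a, Ir76a, Ir100a and Ir10a. In between, 16 members had a share of 0 in some libraries and 100% in others, 26.7% against 9.20% of all genes.

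For H3R17me2 no member was fully covered in all 8 libraries, and neither was any other gene. Ir75d, a receptor for the amine pyrrolidine, was the single member with at least 50% of its body covered in all 8. Its shares were 97.9 and 63.3% in 40-day mutants and 66.7 and 54.0% in 40-day controls, and 73.7 and 100% in 3-day mutants and 52.4 and 90.2% in 3-day controls. Ir84a had the next highest mean, 72.6%, with 0% in 40-day control replicate 1 and 35.9 to 100% in the other 7. A share of 0 in some libraries and 100% in others was found for 28 members, 46.7% against 31.4% of all genes. A set of 10 members was never under an H3R17me2 peak, 16.7% against 15.96% of all genes. All 10 lie on X, and the longest of these were Ir10a and Ir7c. They are 90.9% of the members on X, against 84.5% of all genes on X that were never covered. Replicates of one group differed by 50 percentage points or more in 12 to 21 members for H3R17me2 and in 8 to 13 members for H3K27me3. In 40-day mutants the 2 marks were alike in this, with 12 members for H3R17me2 and 13 for H3K27me3. Over all genes the replicates differed this far in 20.0 to 26.3% for H3R17me2 and in 4.37 to 5.49% for H3K27me3.

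**Figure D3:**
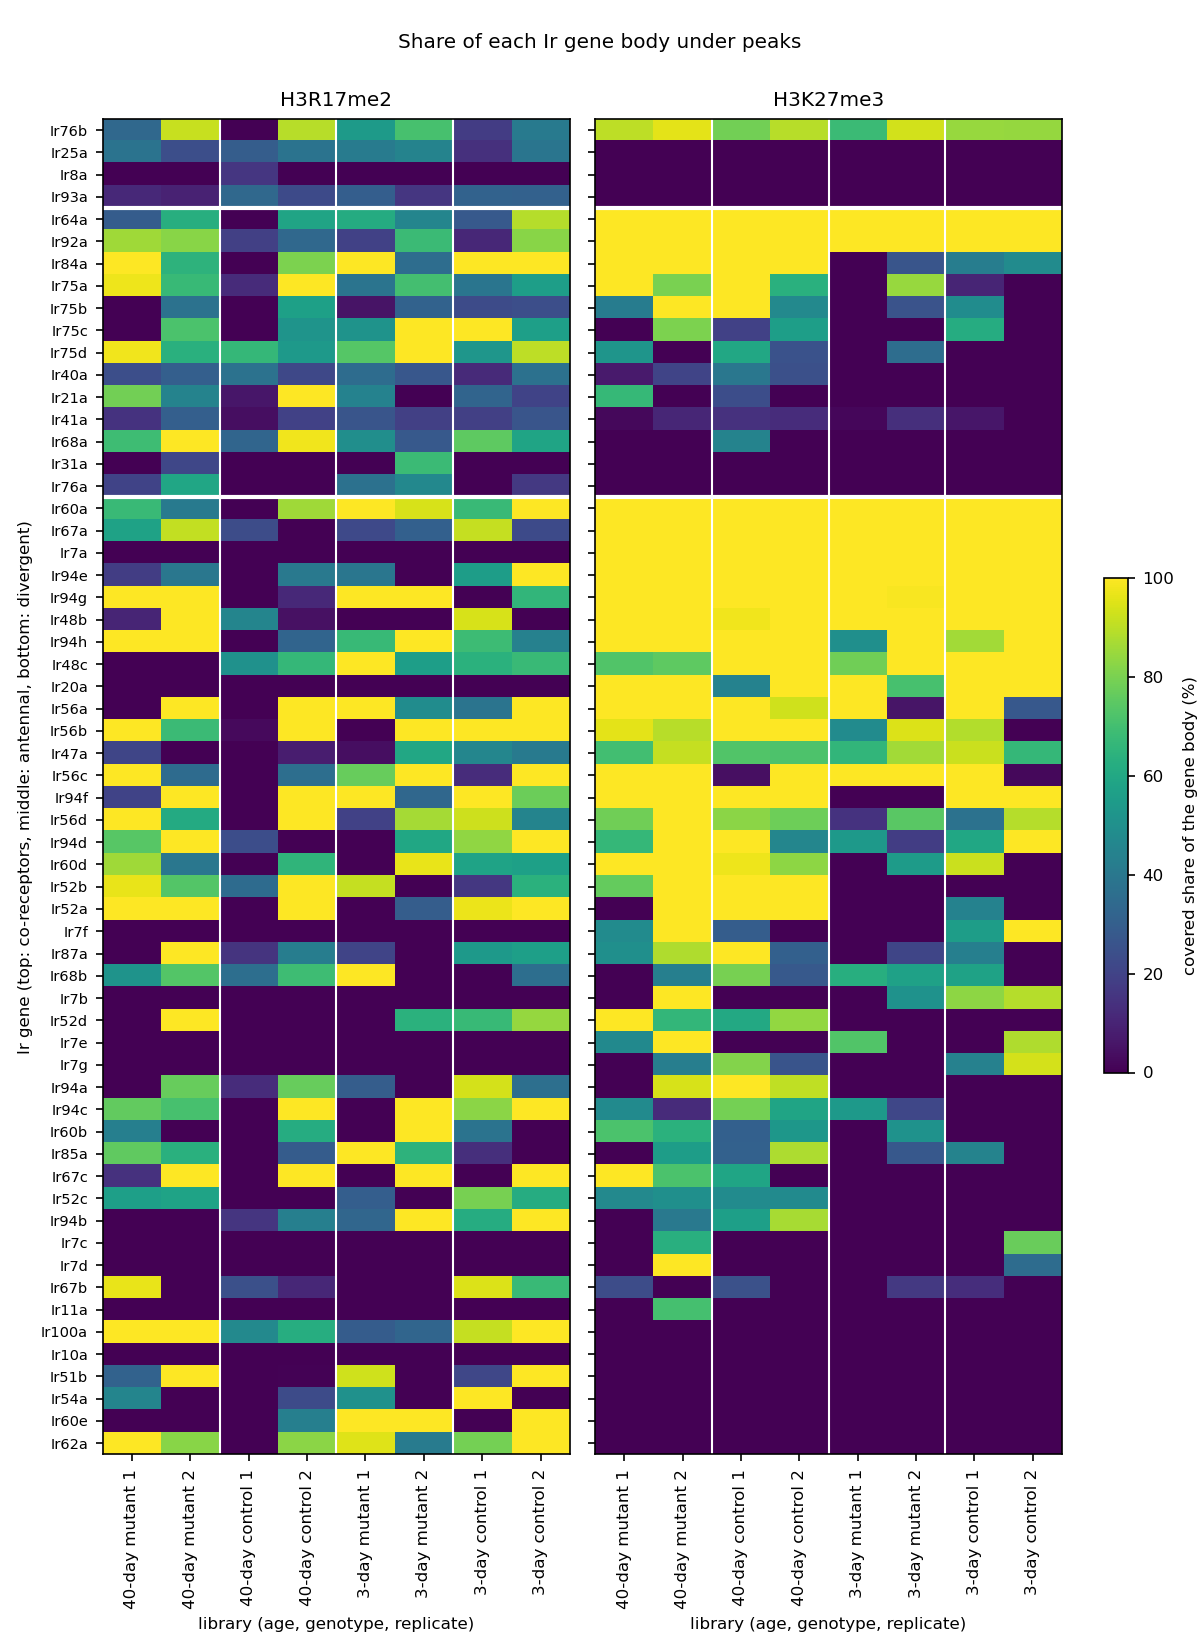
Covered share of the gene body (percent, colour) of each of the 60 Ir genes (rows) in each of the 16 libraries (columns, by age, genotype and replicate), H3R17me2 on the left and H3K27me3 on the right. White lines part the 4 co-receptors, 13 antennal and 43 divergent receptors, each ordered by mean H3K27me3 share. Constant bands of 100 and 0% appear for H3K27me3, and the 10 uncovered rows for H3R17me2 are genes on X.

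The sequences upstream of 6 members are shown because their H3K27me3 shares span the range: Ir84a, Ir94a and Ir94f varied between groups, Ir92a and Ir64a were always covered, and Ir31a was never covered. They are the 250 bases before the gene start in the dm6 reference sequence of RefSeq, 5′ to 3′ on the strand of the gene. The windows are chr3R:7406619-7406868 (plus strand, Ir84a), chr3R:22113177-22113426 (plus, Ir94a), chr3R:23481615-23481864 (plus, Ir94f), chr3R:20338723-20338972 (plus, Ir92a), chr3L:5382822-5383071 (minus, Ir64a) and chr2L:10405315-10405564 (plus, Ir31a). None of these 6 windows held an annotated exon. Capitals mark GCCAT, the core of the motif bound by the Polycomb recruiter Pho, or GAGAG, the motif of GAGA factor, each searched on both strands.
Ir84a: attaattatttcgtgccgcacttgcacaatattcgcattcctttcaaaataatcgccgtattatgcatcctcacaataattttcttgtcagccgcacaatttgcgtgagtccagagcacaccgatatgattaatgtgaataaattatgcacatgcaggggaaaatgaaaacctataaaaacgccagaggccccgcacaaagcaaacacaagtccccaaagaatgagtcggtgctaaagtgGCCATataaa
Ir94a: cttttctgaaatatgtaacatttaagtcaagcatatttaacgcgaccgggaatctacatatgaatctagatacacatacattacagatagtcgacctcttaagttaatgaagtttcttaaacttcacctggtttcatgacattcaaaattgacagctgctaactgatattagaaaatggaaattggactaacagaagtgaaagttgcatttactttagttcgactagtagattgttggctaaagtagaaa
Ir94f: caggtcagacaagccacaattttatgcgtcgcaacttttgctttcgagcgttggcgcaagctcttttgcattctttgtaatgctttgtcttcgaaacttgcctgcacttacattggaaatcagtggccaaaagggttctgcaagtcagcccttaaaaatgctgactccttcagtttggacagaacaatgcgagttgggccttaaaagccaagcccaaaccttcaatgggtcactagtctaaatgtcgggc
Ir92a: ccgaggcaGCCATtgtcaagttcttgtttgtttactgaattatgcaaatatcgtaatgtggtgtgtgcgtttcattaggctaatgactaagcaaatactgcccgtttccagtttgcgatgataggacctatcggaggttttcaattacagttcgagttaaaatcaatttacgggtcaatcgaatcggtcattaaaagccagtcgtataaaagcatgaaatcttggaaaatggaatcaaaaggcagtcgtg
Ir64a: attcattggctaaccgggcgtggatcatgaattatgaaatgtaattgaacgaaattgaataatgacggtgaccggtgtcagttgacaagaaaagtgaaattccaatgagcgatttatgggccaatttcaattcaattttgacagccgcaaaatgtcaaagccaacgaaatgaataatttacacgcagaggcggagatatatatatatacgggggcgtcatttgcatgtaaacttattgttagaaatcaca
Ir31a: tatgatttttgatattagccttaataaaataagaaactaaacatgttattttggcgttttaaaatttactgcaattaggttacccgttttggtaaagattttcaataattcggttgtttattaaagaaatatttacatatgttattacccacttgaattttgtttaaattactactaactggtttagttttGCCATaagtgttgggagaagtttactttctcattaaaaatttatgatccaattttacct
GCCAT was found upstream of Ir84a, Ir92a and Ir31a, with 1 match each. GAGAG was found in none of the 6. Over the same window GCCAT was present in 23 of 60 members (38.3%) and in 35.7% of all protein-coding genes. GAGAG was present in 8 members (13.3%) and in 25.7% of all genes. Among the 11 members with at least 50% of the body covered by H3K27me3 in all 8 libraries, 3 held GCCAT and 2 held GAGAG. Among the 11 that were never covered the numbers were 3 and 1. The motifs can share the end base G, and a match is a description of the letters only.

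The co-receptors split by H3K27me3. Ir25a, the most broadly used co-receptor (chr2L:4830846-4835300, minus strand, 4455 bp), had an H3R17me2 share of 13.8 to 44.8% with a median of 38.1%. Its H3K27me3 share was 0% in all 8 libraries. Ir93a, which acts with Ir25a in temperature and humidity sensing (chr3R:20851709-20859945, minus strand, 8237 bp), had 9.59 to 33.9% H3R17me2 with a median of 26.0%, and again 0% H3K27me3. Every H3R17me2 library was above every H3K27me3 library at both genes. Ir8a, the co-receptor of acid-sensing olfactory neurons, lies on X and had 0% of either mark except 15.9% H3R17me2 in 40-day control replicate 1. Ir76b, a co-receptor for amine and taste receptors (chr3L:20108484-20111534, minus strand, 3051 bp), stood opposite in H3K27me3 alone. H3R17me2 covered 0 to 91.6% of it, median 48.0%, and H3K27me3 68.0 to 96.0%, median 87.1%. Mean H3R17me2 was 49.9% at Ir76b, 33.6% at Ir25a and 23.1% at Ir93a, against 35.1% for all autosomal genes.

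Antennal receptors showed both extremes. For Ir64a, which senses acids, and Ir92a, which responds to ammonia and other amines, H3R17me2 varied and H3K27me3 was constant. H3R17me2 covered 0 to 88.7% of Ir64a, median 51.9%, and 11.01 to 85.9% of Ir92a, median 51.0%. H3K27me3 covered 100% of both genes in all 8 libraries. Those H3K27me3 peaks were wide, from 18183 to 83921 bp at Ir64a and from 45938 to 89942 bp at Ir92a, so the genes were small parts of large domains. Ir31a and Ir76a, the receptor for certain amines, had no H3K27me3 in any library. Ir68a, a moist-air receptor, had H3K27me3 in 40-day control replicate 1 alone, at 44.8%. Over the 13 antennal receptors the mean was 34.6% ± 13.5 for H3K27me3, against 48.6% ± 12.4 for the 43 divergent receptors (SD over 8 libraries).

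The question of where the 2 marks differ was asked gene by gene, with an exact two-sided permutation test of 8 H3R17me2 against 8 H3K27me3 libraries, adjusted by the Benjamini-Hochberg method over all 12018 genes with any peak. Of the 59 members tested, 8 had a higher share of H3R17me2 at an adjusted p under 0.05, against 25.4% of all genes tested. Another 11 had a lower share of H3R17me2, against 10.2% of all genes tested. In percent of the members this was 13.6% higher and 18.6% lower. The 59 leave out Ir10a, which had no peak of either mark. When libraries of the same group and number were taken as 8 pairs, an exact sign-flip permutation test left 0 calls, with 21 members at an unadjusted p under 0.05 and a smallest adjusted p of 0.0595. The calls named next are those of the unpaired test.

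The members with more H3R17me2 than H3K27me3 were the co-receptors Ir25a and Ir93a, the antennal Ir41a, Ir68a and Ir75d, and the divergent Ir51b, Ir62a and Ir100a. The difference was 33.6 percentage points at Ir25a and 23.1 at Ir93a (adjusted exact permutation p = 0.00146 for each). At Ir62a, a taste receptor gene inside Iml1, it was 72.6 points. Ir68a differed by 58.2 points and Ir75d by 53.2 points. In 4 of the 8 the body overlaps another gene (Ir51b in row, Ir62a in Iml1, Ir75d in Prp6, Ir100a in CG42233).

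The members with less H3R17me2 than H3K27me3 were Ir76b, Ir64a, Ir92a, Ir47a, Ir48b, Ir48c, Ir60a, Ir67a, Ir94e, Ir7a and Ir20a. The difference was -35.6 points at Ir76b (adjusted exact permutation p = 0.0303) and -53.3 points at Ir64a. Ir7a, a receptor for the taste of acetic acid, and Ir20a lie on X and had no H3R17me2 peak, and differed by -100 and -89.4 points. Without the X genes 8 members were higher (16.3%) and 9 lower (18.4%), against 26.8 and 9.78% of all autosomal genes tested. With peaks of q under 0.05 the 8 higher calls were lost and 5 lower calls were left. The libraries of replicate 2 alone, 4 against 4, gave 0 calls over the members, with 16 members at an unadjusted exact permutation p under 0.05 and a smallest adjusted p of 0.0997. Those of replicate 1 alone gave 0 calls and 12 members, with a smallest adjusted p of 0.149.

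The largest mean differences in H3K27me3 over the Ir genes were those with age. Among controls, the mean covered share of the members was 54.3 and 49.7% in 40-day libraries, against 39.9 and 35.0% in 3-day libraries. The difference of means was 14.6 points with a replicate SD of 3.37, and both 40-day values were above both 3-day values. The chromosomes went opposite ways in controls: the 49 autosomal members differed by 23.8 points, and the 11 members on X averaged 21.9% ± 1.90 at 40 days, against 48.4% ± 19.3 at 3 days (SD, n = 2 libraries each). Of the X members, 6 form the Ir7b to Ir7g cluster. All genes in controls averaged 28.0% at 40 days against 19.8% at 3 days on autosomes, and 3.79% against 5.46% on X. Over all members the share among mutants was 47.6 and 61.7% in 40-day libraries, against 27.8 and 33.8% in 3-day libraries, a difference of 23.9 points with a replicate SD of 7.67. The means of the mutants showed no such split by chromosome, but on X most of the difference came from 1 library. The X members of mutants averaged 48.7% ± 30.9 at 40 days against 22.5% ± 3.28 at 3 days. By library they had 26.9 and 70.6% at 40 days, against 20.2 to 24.8% at 3 days. The autosomal members of mutants averaged 56.0% against 32.7%. Over all genes the differences with age were 6.58 points in controls and 7.43 points in mutants. For the odorant receptor genes they were 14.0 and 22.7 points, and for the gustatory receptor genes 22.8 and 18.6 points. The 40-day lists covered more of the genome, as given above. Less the difference over all genes, that of the Ir genes among controls was 7.97 points. The direction among controls turned when only peaks with q under 0.05 were kept: the difference was then -15.0 points. It was 1.67 points when equally many top peaks were taken from every list. Among mutants the q threshold gave 11.9 points, but from 1 library: the shares were 6.67 and 41.2% at 40 days, against 14.6 and 9.52% at 3 days, so replicate 1 lay below both 3-day libraries.

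Peak by peak, the H3K27me3 signal over the members was weak. Their 253 overlapping peaks had a fold enrichment of 1.24 to 2.17 over input, and 74 of them (29.2%) had a mean q under 0.05, against 22.0% of all H3K27me3 peaks. The share of a whole list that passed this threshold ran from 10.9% in 40-day mutant replicate 1 to 41.7% in 40-day mutant replicate 2. The 402 H3R17me2 peaks over members had a fold of 1.22 to 1.87, and 0 passed the threshold, against 0.174% of all H3R17me2 peaks. Hardly any H3R17me2 peak of any list passed it. A share of 0 means that no peak was called there and does not show that the mark was absent.

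A gene was counted as higher or lower without overlap when every library of one group lay above, or below, every library of the other. With 2 libraries against 2 the smallest exact permutation p is 0.333, so these counts carry no significance of their own. The p-values given here measure only the spread between these libraries, each group being 2 biological repeats. In controls 14 members had a higher H3K27me3 share at 40 days without overlap, which is 23.3% of them against 11.8% of all genes, and 2 had a lower one, against 1.56%. The 14 were the Ir52a to Ir52d and Ir94a to Ir94c clusters, Ir40a, Ir41a, Ir56b, Ir60b, Ir75a, Ir75d and Ir84a, at 9 loci. The 2 that were lower were Ir7b and Ir7f. In mutants 14 members were higher, against 12.6% of all genes, and Ir48c and Ir68b were lower, against 0.588%. The mutant 14 were Ir40a, Ir52b, Ir52c, Ir52d, Ir56d, Ir60b, Ir60d, Ir67c, Ir75b, Ir84a, Ir87a, Ir94d, Ir94f and Ir7f. Of the odorant receptor genes, 23.3% were higher at 40 days in controls and 33.3% in mutants. Of the gustatory receptor genes, 30.0% were higher in controls and 25.0% in mutants. In both families 1.67% were lower in controls and 0% in mutants. The gain with age was thus not particular to the Ir genes.

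With the genotypes together, 4 libraries against 4, 5 members had a higher H3K27me3 share in all 40-day libraries than in all 3-day libraries, which is 8.33% of them against 5.46% of all genes. None was lower in this way, against 0.129% of all genes. The 5 were Ir40a, Ir52b, Ir52c, Ir52d and Ir84a, each with the smallest exact permutation p that 4 against 4 allows, 0.0286 (adjusted over all genes 0.511). The adjusted threshold was out of reach for any gene, given this smallest p and 8234 of 13945 genes uncovered in all 8 libraries. An unadjusted exact permutation p under 0.05 was found for 780 genes. The count of 5 was 0 with peaks of q under 0.05 and 0 with equally many peaks per list, and 9 within 1000 bp of the gene start. No share over all genes is given for these settings.

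The Ir52 genes are 4 neighbours within 8735 bp (chr2R:15499632-15508366), and members of this cluster are made in taste neurons, Ir52c and Ir52d in leg neurons of males. The share of Ir52b was 76.5 and 100% in 40-day mutants and 100 and 100% in 40-day controls, against 0% in all 4 3-day libraries. Ir52d had 100 and 66.1% in 40-day mutants and 60.3 and 83.6% in 40-day controls, against 0% in all 4 3-day libraries. Ir52c had 47.1 to 49.6% in the 40-day libraries, against 0% in the 3-day libraries. At these 3 genes the ages did not overlap in either genotype. Ir52a had 0 and 100% in 40-day mutants and 100 and 100% in 40-day controls, against 0 and 0% in 3-day mutants and 44.3 and 0% in 3-day controls, so its ages overlapped.

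The Ir52 shares came from few peaks. In 40-day mutant replicate 2, a peak of 6495 bp ended inside Ir52c and another of 2165 bp reached over Ir52d. In 40-day control replicate 1 the corresponding peaks were 20351 and 2030 bp long. The peak end inside Ir52c lay 5416 to 5462 bp from the start of Ir52a in the 4 libraries. The fold enrichment of the peaks on the cluster was 1.32 to 1.47 in the 40-day libraries, and their −log10 q was 0.448 to 1.15, so none had a q under 0.05. All 3-day lists had H3K27me3 peaks within 10000 bp upstream of Ir52a, with folds of 1.38 to 1.68.

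Ir84a, a receptor for phenylacetic compounds of food that promotes male courtship (chr3R:7406869-7409384, plus strand, 2516 bp), was another locus of this kind. Its H3K27me3 share was 100% in all 4 40-day libraries. It was 0 and 26.4% in 3-day mutants and 42.3 and 48.3% in 3-day controls. In the 40-day mutants 1 peak of 12995 and 1 of 12950 bp spanned the gene. In the 3-day lists the peaks touching it were 948 to 3565 bp long, and none touched it in 3-day mutant replicate 1. The fold enrichment was 1.35 to 1.502 in 40-day libraries, against 1.35 to 1.47 in the 3-day libraries with a peak on the gene. Peak extent separated the ages here, and the ranges of fold overlapped.

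**Figure D4:**
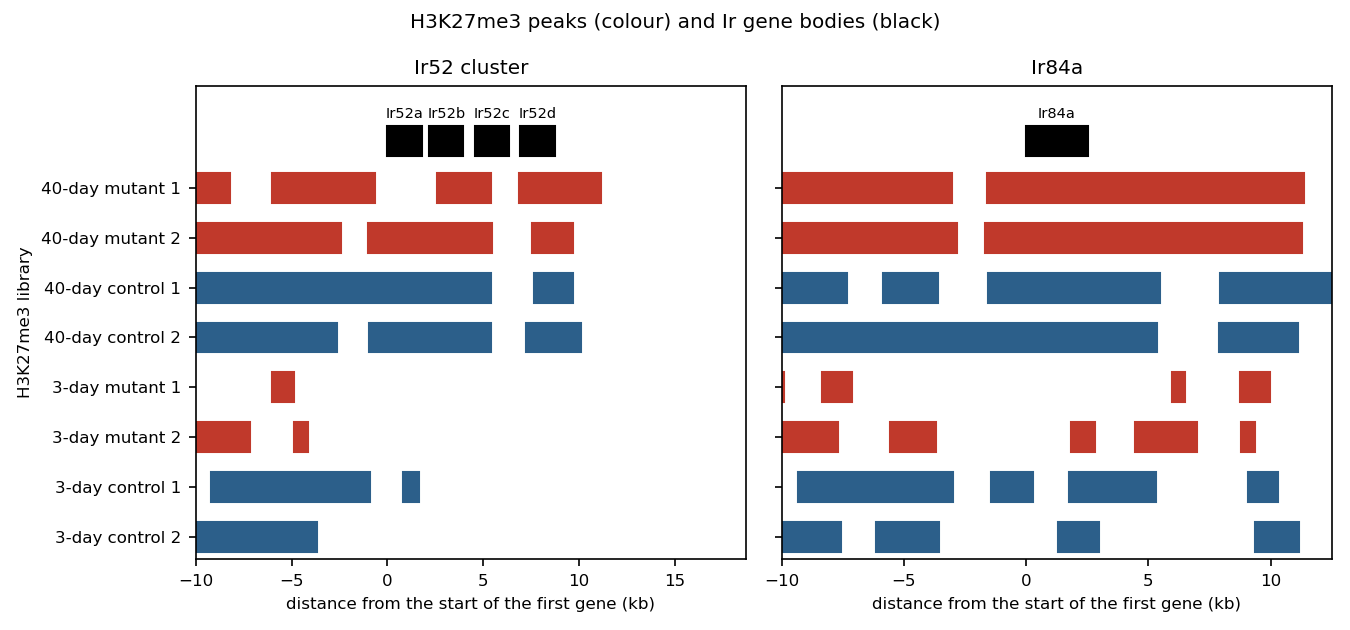
H3K27me3 peaks (coloured bars, red for mutant and blue for control libraries, 1 row per library) at the Ir52 cluster and at Ir84a, with gene bodies in black. The horizontal axis is the distance in kb from the start of the first gene. The 40-day rows cover most of each gene group, 3 of the 4 3-day rows have no peak over the Ir52 genes, and the 3-day rows cover Ir84a in part or not at all.

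Ir40a, a dry-air receptor with a gene of 24851 bp, was covered in part: 7.13 and 20.4% in 40-day mutants and 39.7 and 24.6% in 40-day controls, against 0% in all 3-day libraries. With equally many top peaks per list, none of the 5 members stayed without overlap. Ir52b then had 0% in 40-day control replicate 2, and Ir84a had 0% in both 40-day controls. The neighbouring divergent genes Ir94a to Ir94c (chr3R:22113427-22119454) separated the ages in controls alone. Their locus was covered to 14.4 and 43.5% in 40-day mutants, against 16.3 and 6.35% in 3-day mutants, which overlap. In controls it was 74.4 and 74.4% at 40 days, against 0% in both 3-day libraries. Ir94a had 0 and 94.0% in 40-day mutants and 100 and 90.5% in 40-day controls, against 0% in all 3-day libraries. Ir94c had 47.8 and 12.1% in 40-day mutants, against 54.2 and 21.1% in 3-day mutants.

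Between genotypes at 40 days, the mean H3K27me3 share over the members was 47.6 and 61.7% in mutants against 54.3 and 49.7% in controls. The difference of 2.65 points was smaller than the replicate SD of 7.44. Its sign was not stable: it was 12.0 points between replicates 2 and -6.72 points between replicates 1, and 17.3 points with equally many peaks per list. Without overlap, 6 members were higher in mutants, against 4.34% of all genes, and 6 were lower, against 2.95% of all genes. The higher ones were Ir60b, Ir60d, Ir67c, Ir76b, Ir7e and Ir7f, and the lower ones Ir40a, Ir41a, Ir48c, Ir56b, Ir94b and Ir94c. The largest was Ir7e on X, with 47.4 and 100% in mutants and 0% in both controls. Its neighbour Ir7f had 48.3 and 100% in mutants, against 29.5 and 0% in controls.

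The Ir7b to Ir7g genes are divergent receptors, among them Ir7c, which takes part in high-salt taste. All 6 were covered by H3K27me3 in 40-day mutant replicate 2, at 42.8 to 100%, and in 3-day control replicate 2, at 35.2 to 100%. In the other 6 libraries at least 3 of the 6 genes were at 0%. Ir7d, for example, had 0 and 100% in 40-day mutants and 0% in both 40-day controls, and 0% in both 3-day mutants and 0 and 35.2% in 3-day controls. The cluster was thus covered or bare by library as well as by group.

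At 3 days the mean over the members was 27.8 and 33.8% in mutants and 39.9 and 35.0% in controls. The difference was -6.65 points with a replicate SD of 3.86, and over autosomal members it was -2.32 points. It was -12.1 points between replicates 1 and -1.22 points between replicates 2. Without overlap, Ir94c alone was higher in mutants, against 2.01% of all genes, and 6 members were lower, against 3.08%. The lower ones were Ir84a, Ir94d, Ir94f, Ir7b, Ir7f and Ir7g. Ir94f had 0% in both 3-day mutants, against 100% in both 3-day controls. In 40-day flies it was at 100% in all 4 libraries of both genotypes, under peaks of 23646 to 44479 bp. With ages together, 0 members were higher in mutants and 0 lower, against 0.1% and 0.0717% of all genes. No member had an unadjusted exact permutation p under 0.05 there, and 24 of all genes did.

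The H3R17me2 comparisons with 40-day controls depended on 1 library. Among 40-day flies the mean over the members was 40.7 and 48.9% in mutants, against 9.81 and 42.0% in controls. The difference was 18.9 points with a replicate SD of 16.6, and without 40-day control replicate 1 it was 2.82 points. Over all genes it was 11.3 points. Without overlap, 10 members were higher in mutants, against 18.9% of all genes, and 3 were lower, against 3.76%. The higher ones were Ir51b, Ir52c, Ir67a, Ir76a, Ir85a, Ir92a, Ir94d, Ir94g, Ir94h and Ir100a, and the lower ones Ir48c, Ir93a and Ir94b. The member with the largest difference was Ir94g, at 100% in both mutants, against 0 and 11.4% in controls. Its neighbour Ir94h was also at 100% in both mutants, against 0 and 32.3% in controls. Without 40-day control replicate 1, 13 members were higher and 14 lower, against 22.5 and 18.4% of all genes.

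Among 3-day flies the mean was 36.1 and 41.1% in mutants, against 41.9 and 49.9% in controls, a difference of -7.29 points with a replicate SD of 4.71. Over all genes the difference was 1.91 points, in the other direction. Without overlap, 5 members were higher in mutants, against 9.72% of all genes, and 11 were lower, against 9.32%. The largest difference was at Ir52a, with 0 and 29.4% in mutants and 96.9 and 100% in controls. Ir67b followed, with 0% in both mutants and 94.8 and 67.6% in controls. The 5 higher members were Ir25a, Ir76a, Ir76b, Ir85a and Ir94g.

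With age, the H3R17me2 share among controls was lower without overlap at 13 members, against 15.5% of all genes, and higher at 0, against 5.1%. The mean was 9.81 and 42.0% at 40 days, against 41.9 and 49.9% at 3 days, a difference of -20.03 points with a replicate SD of 16.6, or -3.95 points without 40-day control replicate 1. Over all genes it was -7.76 points. Without that library 15 members were lower and 11 higher, against 18.6 and 21.3% of all genes. The largest difference without overlap was at Ir94d, with 23.7 and 0% at 40 days, against 83.4 and 100% at 3 days. Ir52d had 0% in both 40-day controls, against 67.5 and 84.1% in 3-day controls. Among mutants the mean was 40.7 and 48.9% at 40 days, against 36.1 and 41.1% at 3 days, a difference of 6.16 points, against 1.64 points over all genes. In that comparison 9 members were higher at 40 days, against 12.3% of all genes, and 6 lower, against 8.3%. There Ir52a had 100% in both 40-day libraries, against 0 and 29.4% in 3-day libraries, and Ir60e had 0% in both, against 100% in both 3-day libraries.

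**Figure D5:**
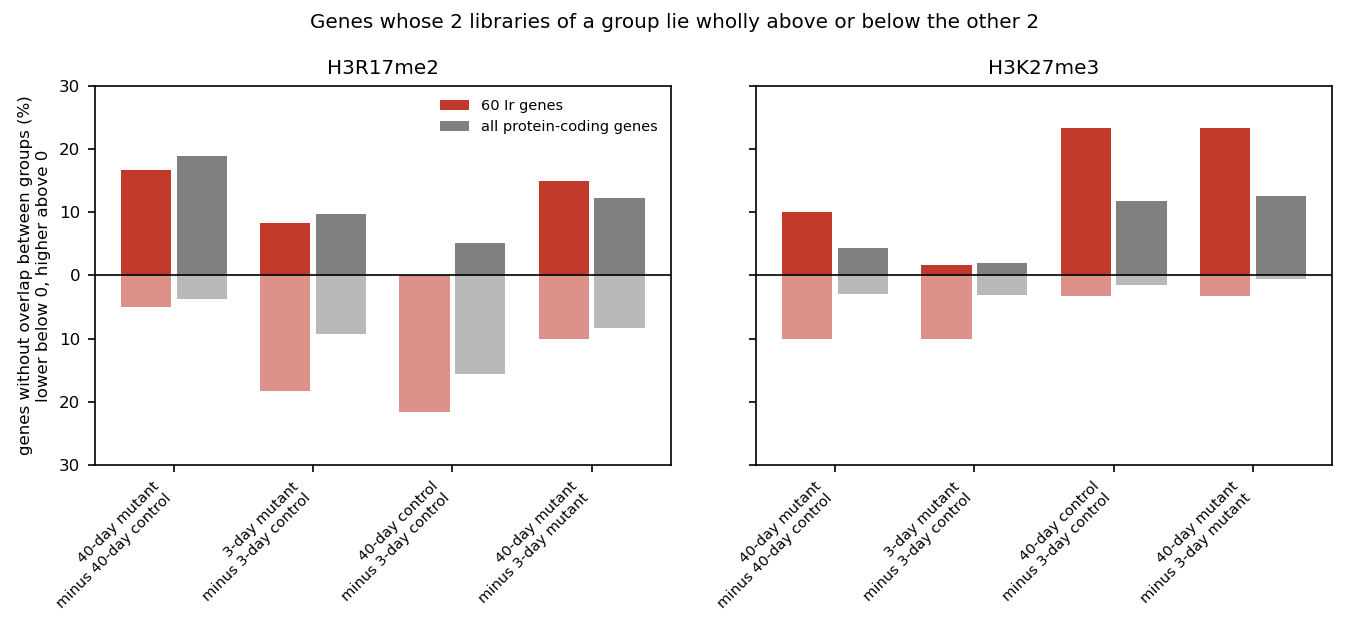
Percent of genes (vertical axis, higher above the zero line and lower below it) whose 2 libraries of one group lay wholly above or below the 2 of the other, for the 60 Ir genes (red) and all protein-coding genes (grey), by contrast and mark. For H3K27me3 with age the Ir bars reached 23.3% in both genotypes, against 11.8 and 12.6% of all genes.

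With the genotypes together, H3R17me2 separated the ages at 0 members in either direction, against 0.459% of all genes higher and 1.13% lower at 40 days. No member had an unadjusted exact permutation p under 0.05 in that comparison, and 222 of all genes did. With the ages together, 3 members were higher in mutants, against 1.32% of all genes, and 0 lower, against 0.237%. These were Ir94g, Ir85a and Ir76a (exact permutation p = 0.0286 for each, adjusted over all genes 1). Ir94g, on 3R, had 100% in all 4 mutant libraries, against 0 and 11.4% in 40-day controls and 0 and 65.6% in 3-day controls. Ir85a, which lies inside Pif1A and Pif1B, had 75.4 and 63.5% in 40-day and 100 and 64.5% in 3-day mutants, against 0 and 29.2% in 40-day and 13.7 and 0% in 3-day controls. Ir76a had 20.2 and 59.0% in 40-day and 37.3 and 46.5% in 3-day mutants, against 0% in both 40-day controls and 0 and 16.7% in 3-day controls. The 3 genes were picked because their 4 mutant libraries lay above the 4 control libraries, so that order is no further evidence. In this comparison 217 genes of 13945 had an unadjusted exact permutation p under 0.05. The count of 3 was 0 within 1000 bp of the gene start, and 1 among the members that overlap no other gene.

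Peaks of the marks could lie over the same members. When each H3R17me2 list was laid over the H3K27me3 list of its own group and number, 2 to 22 members had at least 50% of the body under the 2 marks at once, or 3.33 to 36.7% of them, against 4.53 to 16.6% of all genes. The mean share of a member body under both was 6.82 to 33.7%, against 5.94 to 15.8% over all genes. In the pair of 40-day control replicate 1 fewer members than genes had such a share, 3.33% against 4.53%. On autosomes the share of a member body under both marks was 8.35 to 41.3%, and the product of the 2 mean shares in the same pairs was 7.17 to 35.8%.

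The ionotropic glutamate receptor genes, the synaptic relatives of the family, gave a mean of 47.2% ± 7.04 for H3K27me3 over 13 genes (SD over 8 libraries). GluRIIA, GluRIIB and GluRIIC, subunits of the muscle receptor, were at 100% in all 8 libraries, and Ekar had no H3K27me3. Of these 13 genes, 3 had a higher H3K27me3 share at 40 days without overlap in controls, against 11.8% of all genes, and 4 in mutants, against 12.6%. None was lower, against 1.56% of all genes in controls and 0.588% in mutants.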

How the data were processed

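ChIP-seq of H3R17me2 and H3K27me3 was performed on chromatin of 25 heads per sample, in 2 libraries for each mark, age and genotype. The 8 input libraries were not used here apart from their part in the peak calls. Per the submitters' processing notes, reads were handled with Trim Galore 0.6.0, Bowtie2 2.5.1, SAMtools 1.19 and MACS2 2.2.7.1 on dm6, and duplicates were removed per the study's methods. The deposited broad peak lists, 1 per library, hold for each peak a mean fold enrichment over input and mean −log10 p and −log10 q values, as the authors' MACS2 runs gave them. The lowest −log10 p listed was 1.00 and the shortest peak 500 bp. Which input went with which list is not given in the sources used here, and no read counts were used, so depth is unknown. Peaks have no fixed height scale between lists, and a list that holds more or longer peaks gives higher shares at every gene.

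Gene models were the 13945 protein-coding genes of Ensembl release 115 on the assembled autosomes and X. Peaks of a list were merged and the covered percent of each gene body was computed with Python 3.11.15, NumPy 2.4.6 and pandas 2.3.3. Groups came from the labels. Pairs of groups were compared by the difference of their mean shares, by the order of libraries, and by exact two-sided permutation tests per gene with Benjamini-Hochberg adjustment over all genes; these steps were tested on simulated data. The members and gene lists were chosen with earlier results of these data known. Genes given with values were the co-receptors, up to 2 members per mark and pair of groups with the largest difference without overlap, up to 3 per pooled comparison, and per mark the 2 members with the largest mean and the 2 longest never covered. Ir7d, Ir31a, Ir40a, Ir52c, Ir62a and Ir68a and the other members with values were named after their values were seen. Alternatives were a q threshold of 0.05, equal numbers of peaks per list, other gene regions, members or loci, leaving out replicates, and a replicate block. Upstream sequences came from the RefSeq dm6 genome.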

Additional observations from a re-analysis of the deposited data

Results flagged for a closer look

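In 5 members the effect in one arm of the design ran opposite to that in the other, with every library of each arm on its own side. In H3K27me3 this held for 1 member by age (1.67% of the 60, against 0.351% of all genes) and 2 by genotype (3.33%, against 0.71% of all genes). In H3R17me2 it held for 3 members by age (5.0%, against 2.94% of all genes) and the same number by genotype (5.0%, against 2.64%). None of these differences was itself tested, since 2 libraries per group allow no p under 0.05. The values below are differences of mean covered shares in percentage points, and then the difference between the 2 differences.

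For H3K27me3 at Ir7f, the 40-day minus 3-day difference was 74.2 points in mutants and -63.0 points in controls, which differ by 137 points. Seen by genotype, mutant minus control was 59.4 points at 40 days and -77.8 points at 3 days, again 137 points apart. At Ir94c the mutant minus control difference in H3K27me3 was -38.9 points at 40 days and 37.7 points at 3 days, which gives -76.5 points.

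For H3R17me2 at Ir94d, the age difference was 57.2 points in mutants and -79.8 points in controls, 137 points apart. The genotype difference there was 75.1 points at 40 days and -62.0 points at 3 days, also 137 points apart. Ir52c had age differences of 42.1 points in mutants and -70.7 points in controls, and genotype differences of 57.1 points at 40 days and -55.8 points at 3 days, each 113 points apart. Ir100a had age differences of 69.2 points in mutants and -40.9 points in controls, and genotype differences of 45.3 points at 40 days and -64.8 points at 3 days, each 110.1 points apart. These 3 H3R17me2 patterns use 40-day control replicate 1, the library that stood apart. Replicates 1 and 2 of that group had 0 and 0% at Ir52c, 23.7 and 0% at Ir94d, and 47.2 and 62.2% at Ir100a. At each gene replicate 2 also lay below both 3-day controls and both 40-day mutants. The differences without replicate 1 were not tested.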

How the results depend on the processing

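Alternatives moved several mean differences over the Ir genes, in percentage points. With peaks of q under 0.05, H3K27me3 gave 13.4 for 40-day mutants minus controls, -13.5 for 3-day mutants minus controls, 11.9 for mutants and -15.0 for controls with age, the last one reversed from 14.6. No H3R17me2 peak on a member passed that threshold, so its 4 differences became 0. With equal numbers of peaks, H3K27me3 gave 17.3 for 40-day mutants minus controls and 1.67 for controls with age, and H3R17me2 gave 11.3 for mutants with age. The mean over loci was 15.5 for H3K27me3 in mutants with age, and 1000 bp either side of the start gave -12.8 for H3R17me2 in 3-day mutants minus controls. Leaving out a replicate gave -6.72 to 12.0 for 40-day and -12.1 to -1.22 for 3-day mutants minus controls in H3K27me3. Chosen after seeing the data, autosomal members alone gave -2.32 for 3-day mutants minus controls and 23.8 for controls with age in H3K27me3, and controls with age less the difference over all genes gave 7.97.

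Counts of members without overlap moved too. No share over all genes is given under these alternatives, so the counts cannot be set against a background. For H3K27me3 with age, 5 became 0 under the q threshold, 0 with equal numbers and 9 around the start, and 15 to 17 when a replicate was left out. For H3K27me3 by genotype, 0 became 4 to 9 without a replicate. For H3R17me2 with age, 0 became 1 with equal numbers, with 1000 bp upstream and around the start, and 1 to 16 without a library. For H3R17me2 by genotype, 3 became 0 under the q threshold, 1 with equal numbers, 0 around the start, 1 in members overlapping no gene, and 4 to 16 without a library. The 19 members that differed between marks became 5 under the q threshold, 11 around the start, 12 in members overlapping no gene, and 0 to 24 without a library. Fewer libraries make non-overlap easier to reach and limit the smallest p. Other causes were not tested.

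Within each mark, the replicate numbers did not pair libraries of different groups. Deviations of same-numbered libraries correlated at -0.0924 to 0.0778 for H3K27me3 and -0.0453 to 0.0347 for H3R17me2. Whether H3R17me2 and H3K27me3 libraries of the same group and number pair was not tested. These correlations therefore give no ground for choosing between the paired and the unpaired test of the marks. With a replicate block the counts were 9 for H3K27me3 with age, 5 for H3R17me2 with age, 7 for H3R17me2 by genotype and 0 between marks. No share over all genes is given for the counts by age and genotype, so they cannot be set against a background. Between marks the exact sign-flip test over pairs gave 21 members an unadjusted p under 0.05 and a smallest adjusted p of 0.0595. Of 144 values of named members under the other peak and region settings, 98 held, 38 lost the call, 8 moved and 0 reversed. With the q threshold 8 of 36 held. The values mix differences between groups with mean shares over the 8 libraries of a mark. A difference held when it kept its direction and its call. A mean share has no call, and held when it stayed within the SD of its 8 libraries. Leaving out a replicate cannot undo a choice by non-overlap and is not counted.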
